A study of Mus musculus with 6 samples.

Results

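The genes described here encode enzymes that add methyl groups to histone lysines or remove them. They were taken as a list of 39 autosomal genes, among them Kdm4b itself, and each gene was read from every probe set that carries its symbol alone. Of the 39 genes, 38 had such a probe set among the 18194 genes of the arrays, with 106 probe sets in all, and 28 had at least 2. Setd8, Whsc1 and Whsc1l1 were found under their current symbols Kmt5a, Nsd2 and Nsd3, and Ash1l was not analysed here. Male mice aged 2 months that lacked Kdm4b in the whole body (KO) were set against wild-type mice (WT), and brown, subcutaneous and epididymal fat were profiled. All mice were held at room temperature on a chow diet, and food was withdrawn 6 hours before tissue collection. A single Affymetrix array, 1 per group, covered each of the 6 combinations, and the labels give neither the number of mice behind an array nor the exons deleted. The deletion was not limited to fat, so that any cell type of a depot, and any other organ, lacked the gene in KO mice.

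Histone methylation is written by SET-domain methyltransferases and by Dot1l, which has a different catalytic fold, and it is erased by flavin-dependent demethylases (Kdm1a and Kdm1b) and by JmjC-domain demethylases, which use iron and 2-oxoglutarate. Methylation of H3K4 and H3K36 is found at active genes, whereas methylation of H3K9 and H3K27 accompanies silencing. Kdm4b belongs to the KDM4 subfamily, which removes di- and trimethyl marks from H3K9, and it is a coactivator of early adipocyte differentiation. In mouse fat, Kdm3a is known for restraining obesity, Ehmt1 for its partnership with the brown fat regulator Prdm16, and Kmt2c and Kmt2d for priming adipocyte enhancers.

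Values are MAS5 signals, and log2 differences are of 1 array against another within a depot. A signal of 63.2, the 40th percentile of the probe sets, served as a floor, and each gene was represented by its brightest probe set. Kdm4d and Suv39h2 exceeded the floor on none of the 6 arrays, which left 36 members that were measured and tested. Kdm4d, a KDM4 gene, gave 18.9 in KO and 35.9 in WT epididymal fat, 34.1 in KO and 11.2 in WT subcutaneous fat, and 47.4 in KO and 31.1 in WT brown fat. The highest signal over the probe sets of Suv39h2, an H3K9 methyltransferase, was 52.8. Signals under the floor have no order. Directions are those of the deposited scale. With each array centred on its median, the median difference of all genes was 0.11 in epididymal fat, -0.12 in subcutaneous fat and 0.11 in brown fat, against -0.02, 0.04 and -0.03 as deposited, and a member difference smaller than that shift can change sign. Levels are not compared between genes, since a probe set's brightness also depends on its probes. Probe sets of the same gene scattered around their mean with an SD of 0.32 in brown fat, 0.32 in subcutaneous fat and 0.31 in epididymal fat (log2). That SD is the sole error within a depot and holds nothing of the variation among mice.

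Some arrays differed in tissue content and RNA quality. The summed signal of 10 skeletal muscle markers was 763.6 in KO and 19100.5 in WT brown fat, and it was 2238.9 in KO and 5482.2 in WT epididymal fat. In subcutaneous fat this sum was 67518.0 in KO and 57166.3 in WT. The 5 seminal vesicle markers summed to 1843.4 in KO and 8617.7 in WT subcutaneous fat. The ratio of the 3′ to the 5′ probe set of Actb, a measure of RNA integrity, was 1.55 in KO and 2.19 in WT epididymal fat, 1.53 in KO and 1.86 in WT subcutaneous fat, and 2.74 in KO and 2.69 in WT brown fat. That of Gapdh was 0.819 in KO and 0.938 in WT epididymal fat, 0.793 in KO and 0.924 in WT subcutaneous fat, and 0.798 in KO and 0.903 in WT brown fat. Brown fat carried its markers, with 7 of 7 measured brown adipocyte genes higher in brown than in white fat. The part of these differences in the results was not tested. In whole tissue, fewer cells of a type and less RNA per cell cannot be told apart.

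Kdm4b had lower signals in KO than in WT in each depot. Its probe set gave 188.4 in KO and 226.7 in WT epididymal fat, 156.7 in KO and 272.1 in WT subcutaneous fat, and 95.2 in KO and 134.6 in WT brown fat. All 3 KO arrays were thus lower than the WT array of the same depot, but all lay above the floor, and the KO signals of the white depots exceeded the WT signal of brown fat. The differences were -0.27 in epididymal fat, -0.80 in subcutaneous fat and -0.50 in brown fat (log2), a mean of -0.52 ± 0.26 (SD over 3 depots). In limma, fitted to all 13233 tested genes with depot and genotype as terms, this mean had an adjusted p of 0.522. The difference in epididymal fat was smaller than the probe set SD there. Transcript that lacks the deleted exons can still bind probes outside them, and 1 probe set was available, so the array does not show how much functional message remained.

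The closest relatives of Kdm4b are Kdm4a and Kdm4c, which share its catalytic domain and its H3K9 and H3K36 targets. Kdm4a had signals of 381.0 in KO and 336.8 in WT epididymal fat, 379.5 in KO and 344.0 in WT subcutaneous fat, and 370.4 in KO and 390.4 in WT brown fat. Its KO arrays were the higher ones in both white depots, by 1.13-fold and 1.10-fold, and the lower one in brown fat. With median centring Kdm4a differed by -0.01 in subcutaneous and 0.06 in brown fat, so both directions turned. These steps (0.18, 0.14 and -0.08 on the log2 scale) were smaller than the probe set SD. Kdm4c had signals of 429.5 in KO and 526.6 in WT epididymal fat, 468.3 in KO and 594.9 in WT subcutaneous fat, and 379.4 in KO and 557.5 in WT brown fat. It was lower in KO in every depot, and its highest KO signal lay under its lowest WT signal. The differences of Kdm4c were -0.29, -0.34 and -0.56 in the same order of depots, a mean of -0.40 ± 0.14 (SD over 3 depots) with an adjusted limma p of 0.554. In epididymal fat the Kdm4c difference, too, was smaller than the probe set SD.

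**Figure D1:**
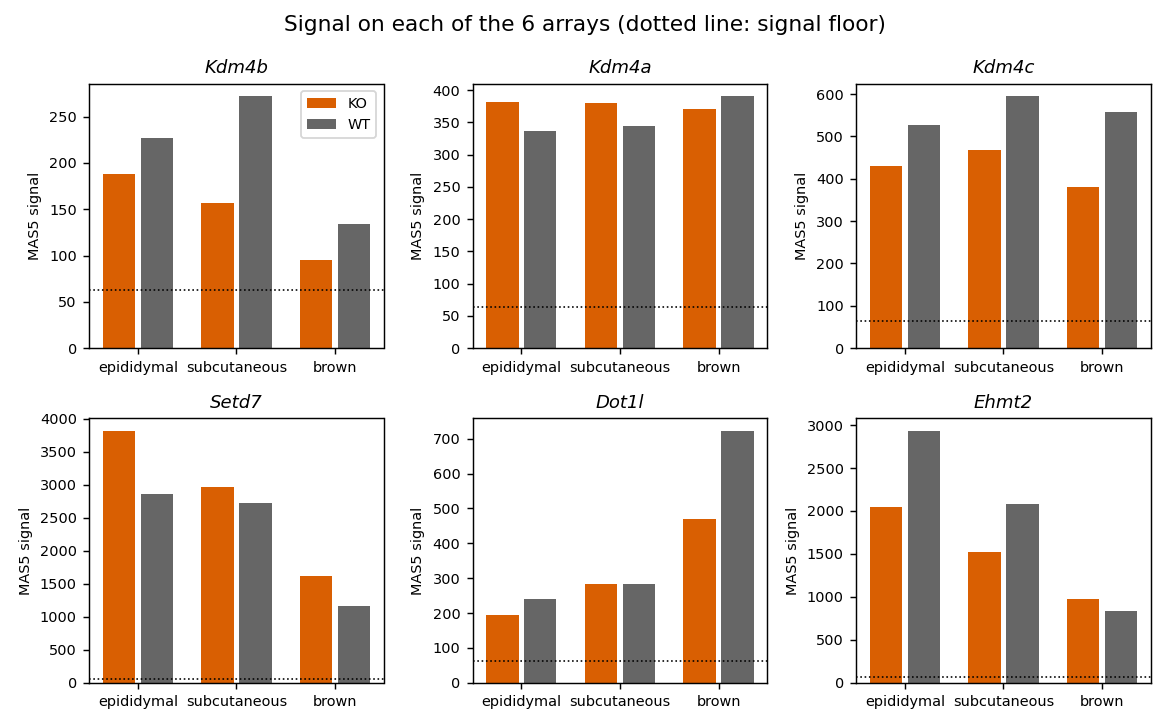
MAS5 signal of Kdm4b, Kdm4a, Kdm4c, Setd7, Dot1l and Ehmt2 on each of the 6 arrays. Bars are single arrays, KO left of WT in each depot, and the dotted line is the floor of 63.2. On this scale Kdm4b and Kdm4c are lower and Setd7 is higher in KO in all 3 depots, and Setd7 turns to -0.02 in subcutaneous fat with median centring.

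The start regions of both relatives and of the members that stand out below are printed to show how differently they are built. Each is the window of 250 bases before a RefSeq transcription start in GRCm38.p6, read 5′ to 3′ on the gene's strand, with CG dinucleotides, the sites of DNA methylation, in capitals. Kdm4a lies at chr4:118180044-118180293 on the minus strand. Kdm4c has an upstream start at chr4:74242247-74242496 and a downstream one at chr4:74251629-74251878, both on the plus strand. Setd7 lies at chr3:51560824-51561073 on the minus strand and Dot1l at chr10:80754953-80755202 on the plus strand.
Kdm4a: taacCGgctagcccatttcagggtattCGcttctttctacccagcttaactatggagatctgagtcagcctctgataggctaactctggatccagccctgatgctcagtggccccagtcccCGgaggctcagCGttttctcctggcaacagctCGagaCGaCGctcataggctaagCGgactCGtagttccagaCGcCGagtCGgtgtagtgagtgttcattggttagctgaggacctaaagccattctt
Kdm4c, upstream start: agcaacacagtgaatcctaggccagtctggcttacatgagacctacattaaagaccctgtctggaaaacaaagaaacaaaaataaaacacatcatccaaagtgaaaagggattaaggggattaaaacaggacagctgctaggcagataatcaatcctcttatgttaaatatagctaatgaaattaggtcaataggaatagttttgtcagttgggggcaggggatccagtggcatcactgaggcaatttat
Kdm4c, downstream start: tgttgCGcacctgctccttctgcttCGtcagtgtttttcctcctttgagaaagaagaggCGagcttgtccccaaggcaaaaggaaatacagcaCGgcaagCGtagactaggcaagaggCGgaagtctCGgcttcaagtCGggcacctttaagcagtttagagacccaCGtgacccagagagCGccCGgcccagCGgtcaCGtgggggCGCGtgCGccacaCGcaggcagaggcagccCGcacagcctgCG
Setd7: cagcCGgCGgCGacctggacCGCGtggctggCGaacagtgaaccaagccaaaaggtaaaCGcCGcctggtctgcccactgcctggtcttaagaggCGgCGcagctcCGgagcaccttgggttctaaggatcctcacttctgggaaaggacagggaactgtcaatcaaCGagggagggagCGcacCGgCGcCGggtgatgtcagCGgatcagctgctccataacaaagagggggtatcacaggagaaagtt
Dot1l: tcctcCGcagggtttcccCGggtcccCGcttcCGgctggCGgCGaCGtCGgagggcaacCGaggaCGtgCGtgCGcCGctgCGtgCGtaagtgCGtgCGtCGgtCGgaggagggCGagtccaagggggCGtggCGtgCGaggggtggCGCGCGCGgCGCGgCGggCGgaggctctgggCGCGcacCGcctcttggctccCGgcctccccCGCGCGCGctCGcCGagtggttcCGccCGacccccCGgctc
Kdm4a held 12 CG dinucleotides, the upstream Kdm4c start 0, the downstream Kdm4c start 19, Setd7 17 and Dot1l 44. Dot1l also held 2 copies of the GC box GGGCGG, counted on both strands, which bind Sp1-type factors. The probe set does not tell the Kdm4c starts apart.

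A window was found for 27 of the members, and the one nearest the 5′ end of the gene was taken where there were several. The median member window held 24.0 CG dinucleotides and 67.6% G and C, against 10 and 55.2% over 17491 protein-coding genes. Searched on both strands, the GC box was found in 17 of 27 members (63.0%), against 42.7% of all genes. The palindromic core of the NRF1 motif was found in 6 of 27 (22.2%), against 6.96% of all genes. CCAAT was found in 9 (33.3% against 36.5%), the E-box CACGTG in 1 (3.7% against 6.65%), the cyclic AMP response element TGACGTCA in 1 (3.7% against 1.98%), and TATAAA in 0 of 27, against 12.4% of all genes. The member windows were thus mostly rich in CG, and the letters of a TATA box were in none. These matches describe the windows and are not evidence of binding. The genes compared were not matched for G and C content, so the motif shares cannot be told apart from base composition.

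The other listed demethylases of H3K9 did not have higher signals in KO as a group. Where 3 differences stand in a row, they are KO minus WT on the log2 scale in epididymal, then subcutaneous, then brown fat. Of 7 measured ones besides Kdm4b, 4 were lower in KO in epididymal fat, 6 in subcutaneous fat and 5 in brown fat, with medians of -0.29, -0.22 and -0.06. With median centring 4, 7 and 2 were lower, so the lean in brown fat turned. By their brightest probe sets none was past 1.5-fold in either direction in any depot. Kdm3a, which removes mono- and dimethyl marks and is needed for normal energy use in mice, differed by -0.30, -0.05 and -0.03. Its relative Kdm3b differed by -0.34, -0.32 and -0.21, a mean of -0.29 ± 0.07 (SD over 3 depots). A dimmer probe set of Kdm3b gave -0.02, -0.51 and 0.155. Jmjd1c, the third gene of that subfamily, differed by 0.02, -0.22 and -0.06 by its brightest probe set. Its other 2 probe sets were lower in KO in every depot (-0.45, -0.46 and -0.52, and -0.80, -0.41 and -0.43). Besides Kdm4b, the H3K9 demethylases with lower KO signals in all 3 depots by their brightest probe sets were Kdm3a, Kdm3b and Kdm4c. Of these Kdm3a dropped out with median centring, and no listed H3K9 demethylase was higher in all 3 by its brightest probe set. Phf8, an X-linked H3K9 demethylase outside the list, was higher in KO in all 3 (0.67, 0.65 and 0.38).

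Phf2 and Kdm7a carry a PHD finger that reads H3K4 trimethylation, and Phf2 is a coactivator in mouse adipocyte differentiation. Phf2 had signals of 982.4 in KO and 1268.0 in WT epididymal fat, 881.3 in KO and 1214.6 in WT subcutaneous fat, and 936.0 in KO and 829.5 in WT brown fat. The KO array was the lower one in both white depots and the higher one in brown fat. Kdm7a, which acts on H3K9 and H3K27, differed by 0.04, -0.13 and 0.28.

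The enzymes that write H3K9 methylation had no common direction either. Ehmt1 and Ehmt2 form the dimer that places dimethyl marks, and Setdb1 and Setdb2 are related to each other in their split SET domain. Ehmt2 had signals of 2043.8 in KO and 2931.2 in WT epididymal fat, 1524.6 in KO and 2081.2 in WT subcutaneous fat, and 970.3 in KO and 837.9 in WT brown fat. The KO array was the lower one by 1.43-fold and 1.37-fold in the white depots and the higher one by 1.16-fold in brown fat. Ehmt1 ran the same way at a smaller size (-0.26, -0.26 and 0.07). Setdb1 was lower in KO in all 3 depots (-0.27, -0.06 and -0.42). Setdb2 was higher in KO epididymal and subcutaneous fat and lower in KO brown fat (0.51, 0.16 and -0.17).

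Among H3K4 enzymes, the demethylases stayed close to their WT signals by their brightest probe sets. The 4 measured genes, Kdm1a, Kdm1b, Kdm5a and Kdm5b, had median differences of 0.01 in epididymal fat, -0.05 in subcutaneous fat and 0.09 in brown fat. Kdm1a, the flavin-dependent enzyme of CoREST, differed by at most 1.06-fold in any depot by its brightest probe set. Its other probe set did not: it gave 590.3 in KO and 335.5 in WT epididymal fat, 501.5 in KO and 431.5 in WT subcutaneous fat, and 279.4 in KO and 448.3 in WT brown fat, which is higher in KO in the white depots and lower in brown fat. Among the brightest probe sets the widest value of the group was 0.30, for Kdm1b in brown fat, while a dimmer one of Kdm5a gave -0.61 there.

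Of 8 H3K4 methyltransferases, 6 had lower signals in KO epididymal fat, 6 in KO subcutaneous fat and 4 in KO brown fat. The 6 catalytic subunits of the COMPASS-type complexes were all lower in KO epididymal fat, with Setd1a at -0.52, Setd1b at -0.48, Kmt2d at -0.46, Kmt2b at -0.30, Kmt2c at -0.18 and Kmt2a at -0.10, although with median centring 5 of the 8 enzymes rather than 6 were lower there. Kmt2a and Kmt2c had their widest values in subcutaneous fat, -0.36 and -0.22. In brown fat the same 6 genes lay between -0.14 and 0.08. Kmt2e, which reads H3K4 methylation and is thought to lack activity, differed by 0.17, -0.19 and 0.09 by its brightest probe set. In epididymal fat, its dimmer probe sets above the floor on all 6 arrays lay between -0.86 and -0.52. Weaker ones gave 0.17 and 0.01 there, so the epididymal direction of Kmt2e was not settled.

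Setd7, a monomethyltransferase of H3K4 and of other proteins, was the H3K4 methyltransferase with higher KO signals in all 3 depots as deposited. It had signals of 3814.8 in KO and 2861.2 in WT epididymal fat, 2966.1 in KO and 2717.1 in WT subcutaneous fat, and 1616.0 in KO and 1168.0 in WT brown fat. The KO array was the higher one in each depot, by 1.33-fold, 1.09-fold and 1.38-fold. With median centring the subcutaneous difference was -0.02. The mean difference was 0.34 ± 0.18 (SD over 3 depots), with an unadjusted limma p of 0.0470 and an adjusted p of 0.591.

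By their brightest probe sets, the H3K27 enzymes showed no common direction. Kdm6b, the inducible H3K27 demethylase, had signals of 791.6 in KO and 816.1 in WT epididymal fat, 777.5 in KO and 631.6 in WT subcutaneous fat, and 1166.3 in KO and 1278.3 in WT brown fat. By this probe set the KO array was the higher one in subcutaneous fat alone, by 1.23-fold, and with median centring it was the higher one in all 3 depots. The other 2 probe sets of Kdm6b were lower in KO subcutaneous fat (-0.75 and -0.18), and in brown fat they gave 0.69 and -0.07, so the direction of Kdm6b was not settled. Ezh2, the main catalytic subunit of Polycomb repressive complex 2, differed by -0.02, -0.07 and -0.09. Its paralog Ezh1 differed by -0.36, 0.15 and 0.10 by its brightest probe set. The other Ezh1 probe set above the floor on all 6 arrays gave -0.50, -0.26 and -0.20. The direction of Ezh1 was thus not settled in subcutaneous and brown fat.

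By their brightest probe sets, the H3K36 demethylases Kdm2a and Kdm2b differed by -0.24 and -0.12 in epididymal fat. In subcutaneous fat they differed by 0.11 and -0.35, and in brown fat by -0.33 and -0.06. The other Kdm2a probe sets above the floor on all 6 arrays gave -0.31 and -0.16 in subcutaneous and 0.49 and 0.06 in brown fat. The direction of Kdm2a was thus not settled in those depots. The other Kdm2b probe set gave -0.09, -0.01 and 0.05, so Kdm2b was not lower in every depot by both probe sets. The 4 measured H3K36 methyltransferases had medians of -0.06 in epididymal fat, 0.00 in subcutaneous fat and 0.03 in brown fat. Setd2, which places the trimethyl mark behind the polymerase, differed by 0.00, -0.02 and 0.12. Nsd1, which places dimethyl marks, differed by -0.12, 0.01 and 0.04. Nsd2 had its widest value in epididymal fat, with 202.1 in KO and 287.7 in WT.

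The remaining members act elsewhere on histones. Kmt5a, the H4K20 monomethyltransferase of the cell cycle, had signals of 1657.3 in KO and 1293.9 in WT epididymal fat, 1579.0 in KO and 1289.1 in WT subcutaneous fat, and 2181.5 in KO and 2002.4 in WT brown fat. It was the higher one in KO in each depot, with a mean difference of 0.26 and an unadjusted limma p of 0.0814. Kmt5a remained higher in all 3 depots with quantile normalization and with median centring. Of 9 cell cycle markers, 8 were higher in KO epididymal fat, and the median differences of the list were 0.33, 0.10 and 0.08. Whether proliferating cells contribute to the Kmt5a values was not tested.

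Dot1l, the H3K79 methyltransferase, had signals of 193.8 in KO and 239.5 in WT epididymal fat, 284.7 in KO and 283.4 in WT subcutaneous fat, and 469.8 in KO and 722.3 in WT brown fat. Brown fat was the depot with the widest gap, 1.54-fold lower in KO. Its other probe set gave 472.3 in KO and 496.1 in WT brown fat, so the probe sets of Dot1l did not show the same size of difference. Jmjd6, a JmjC-domain protein known for lysyl hydroxylation, differed by -0.19, 0.19 and -0.22 by its brightest probe set. Another Jmjd6 probe set gave 0.10, -0.16 and -0.09, so its direction was not settled in the white depots.

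**Figure D2:**
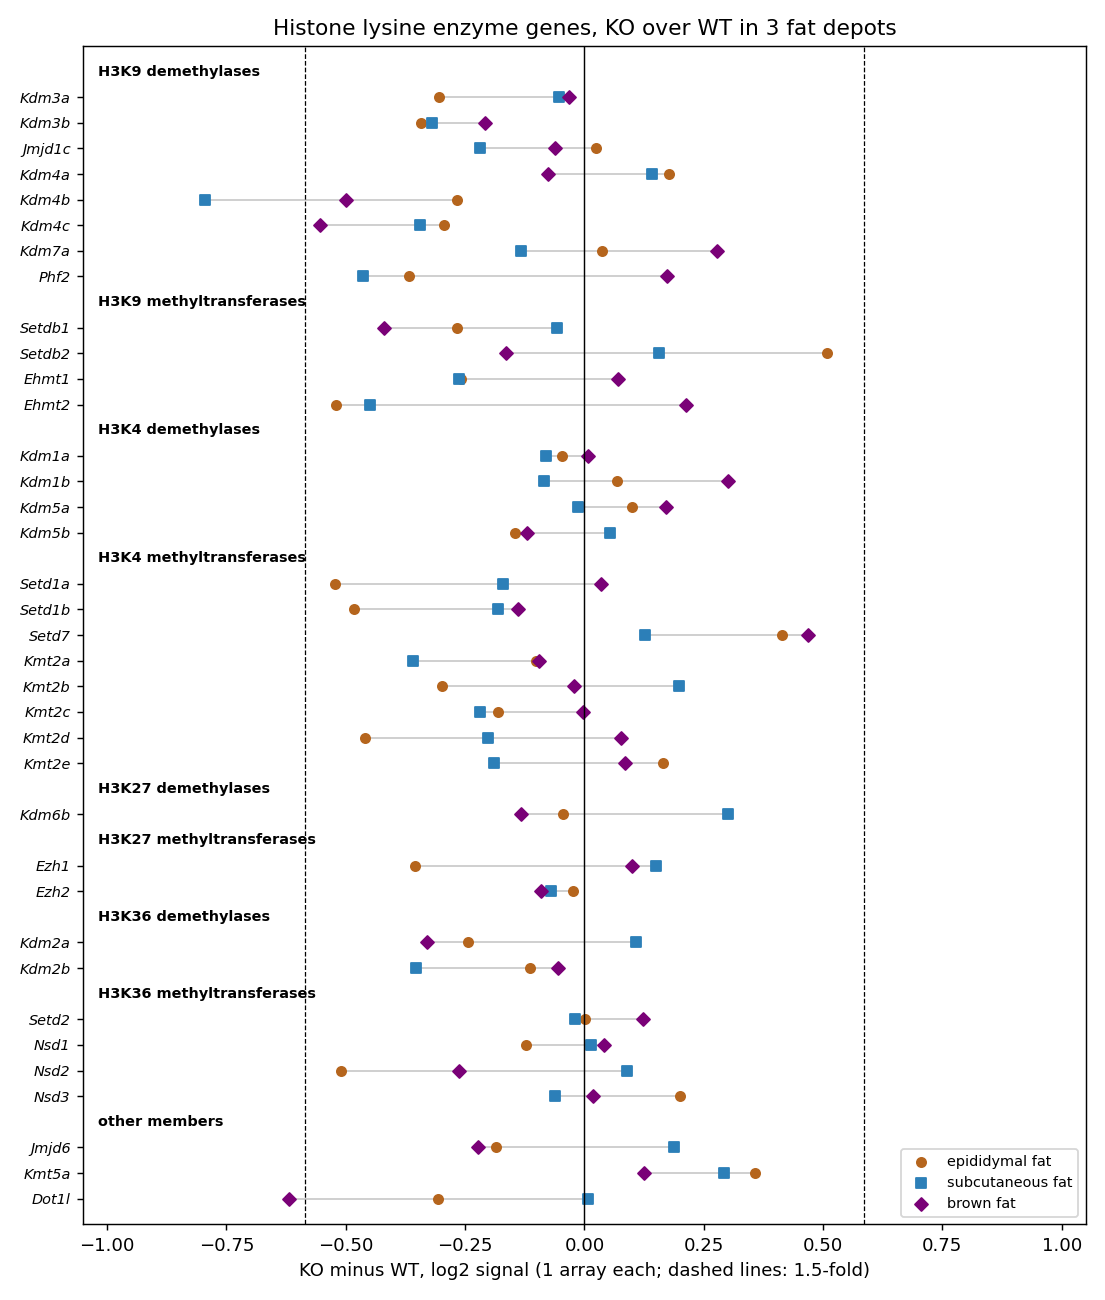
Differences between KO and WT log2 signal for the 36 measured members, grouped by target residue and by whether they remove or add methyl groups. Each point is 1 array against 1 array in a depot and the dashed lines mark 1.5-fold. Kdm4b in subcutaneous fat and Dot1l in brown fat are the points past 1.5-fold, and on the deposited scale Setd7 and Kmt5a are right of 0 in all depots.

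The question whether related enzymes compensate for Kdm4b at the transcript level was read as a count of members with higher signals in KO. In epididymal fat 0 of 36 members were at least 1.5-fold higher and 0 lower, against 4.37% and 6.5% of all measured genes. In subcutaneous fat 0 were higher and 1 was lower, Kdm4b, against 8.71% and 3.74% of genes. In brown fat 0 were higher and 1 was lower, Dot1l, against 4.82% and 8.85% of genes. At 2-fold, 0 members were higher or lower in any depot, whereas 0.87% of genes were higher and 1.41% lower in epididymal fat, 2.2% higher and 0.722% lower in subcutaneous fat, and 1.1% higher and 2.43% lower in brown fat. At 1.5-fold the members' shares, 0.0% or 2.78% in each depot and direction, lay under those of all genes. With 1 array per group these shares have no test. All 36 members exceeded the floor on each of the 6 arrays, whereas all genes include those above it on 1 array of a depot. The shares were not matched for signal.

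Across depots, limma called 0 of 36 members higher and 0 lower in KO at an adjusted p under 0.05, and it called 0.0% of all genes higher and 0.0% lower. Before adjustment, at p under 0.05, Setd7 was higher and Kdm4b and Kdm4c were lower, 1 and 2 of 36 members, against 3.79% of all genes higher and 4.54% lower. The p-values rest on agreement among the 3 depots and carry nothing of the variation among mice.

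Most members had lower KO signals in white fat as deposited, at sizes under 1.5-fold except for Kdm4b. Of 36 members, 25 were lower in KO epididymal fat (69.4%, against 53.3% of all genes), 23 in KO subcutaneous fat (63.9%, against 45.3%) and 20 in KO brown fat (55.6%, against 53.6%). The median difference was -0.16 in epididymal fat (all genes -0.02), -0.07 in subcutaneous fat (0.04) and -0.03 in brown fat (-0.03). With each array centred on its median, the member medians were -0.03, -0.21 and 0.11 and those of all genes 0.11, -0.12 and 0.11, so the direction turned in brown fat. The lower counts were then 19 of 36 in epididymal fat (52.8%, against 36.1% of all genes), 30 in subcutaneous fat (83.3%, against 65.4%) and 10 in brown fat (27.8%, against 37.0%). As deposited, 2 members were higher in KO in all 3 depots, Setd7 and Kmt5a, and 10 were lower, while 1965 of the 12157 genes measured in all depots were higher throughout and 2093 lower. With median centring 2 were higher throughout, Kdm6b and Kmt5a, and 8 lower. Among cell type markers, 7 of 7 macrophage genes were higher in KO epididymal fat (median 0.17) and 7 of 7 lower in KO subcutaneous fat (median -0.51) and in KO brown fat (median -0.21). Of 6 fibroblast markers, 3 were lower in KO epididymal fat, 6 in KO subcutaneous fat (median -0.28) and 6 in KO brown fat (median -0.54). The Actb ratio differed between KO and WT in both white depots and was nearly equal in brown fat, whereas the Gapdh ratio was lower in KO in all 3 depots. The part of these markers and ratios in the member values was not tested.

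The same values can be split by activity. The 20 measured methyltransferases had medians of -0.22, -0.06 and 0.03 in that order of depots (epididymal, subcutaneous, brown), with 14, 12 and 9 of them lower in KO. The 14 demethylases besides Kdm4b had medians of -0.08, -0.08 and -0.06, and 9, 10 and 9 of them were lower.

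Taking every probe set above the floor on both arrays of a depot, 51 of 73 were lower in KO epididymal fat (69.9%), 50 of 76 in KO subcutaneous fat (65.8%) and 32 of 70 in KO brown fat (45.7%), against 53.6%, 47.5% and 52.2% of all such probe sets on the arrays. Of the dimmer probe sets of a gene, 26 of 37 lay on the same side as the brightest in epididymal, 22 of 40 in subcutaneous and 19 of 34 in brown fat. Dimmer probe sets of Kdm1a in epididymal fat and of Kdm6b, Kmt2e, Nsd3 and Phf2 in brown fat were at least 1.5-fold higher in KO, 5 in all. At least 1.5-fold lower in KO were 6 dimmer probe sets in epididymal fat (Jmjd1c, Kdm7a, Kmt2e, Nsd1 and 2 of Nsd2), 2 in subcutaneous fat (Kdm6b and Nsd1) and 2 in brown fat (Kdm1a and Kdm5a). The brightest probe sets of those genes passed 1.5-fold in no depot. The share past 1.5-fold among dimmer probe sets of all genes was not computed, so whether these counts are unusual was not tested.

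**Figure D3:**
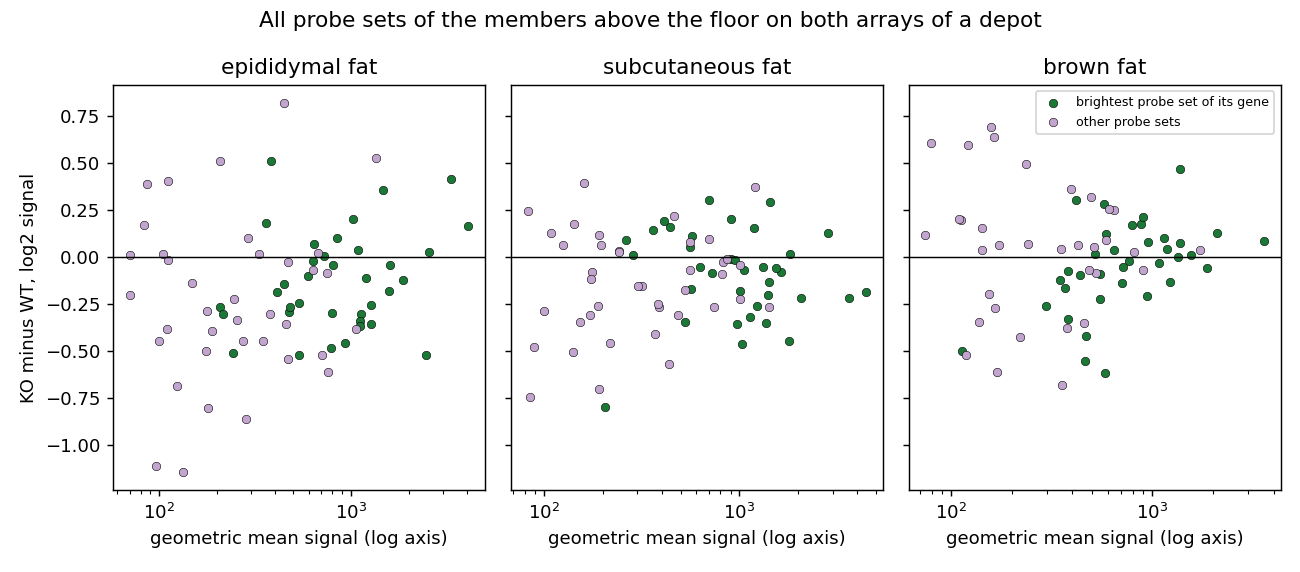
Difference between KO and WT log2 signal of every member probe set above the floor on both arrays of a depot, against its geometric mean signal on a log axis. Green points are the brightest probe set of each gene and lilac points the others. Most points lie below 0 in the white depots (51 of 73 in epididymal, 50 of 76 in subcutaneous fat), and in epididymal fat the widest differences belong to dimmer probe sets of a gene.

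Many members differed between brown and white fat. In limma, brown against white fat (2 against 4 arrays) called 3 of 36 members higher and 15 lower at an adjusted p under 0.05, against 21.6% of all genes higher and 31.1% lower. The WT brown array had the higher muscle marker signal of the brown arrays, and its part in the calls was not tested. Without it 1 brown array is left, so the calls of that fit are not compared. Nsd3, Ehmt2, Setd7 and Kdm7a, the members furthest below white fat, then differed by -1.30, -0.86, -1.06 and -0.955 (log2). With all arrays they differed by -1.28, -1.21, -1.16 and -1.12. With quantile normalization of all arrays 5 members were called higher and 11 lower, and with each array centred on its median 4 and 11. All 18 called members went the same way in both genotypes, with brown and white arrays apart. This largely follows from the call, which was made on the same arrays. The same separation was found for 60% of all tested genes, called or not, so the shares cannot be compared.

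Dot1l was the member furthest above white fat. Its signals in brown fat, 469.8 in KO and 722.3 in WT, exceeded every white signal, the highest of which was 284.7. The difference was 1.24 ± 0.17 (SE), or 2.36-fold, with an adjusted limma p of 0.00327. Kdm6b, an H3K27 demethylase known in mouse brown fat for opening thermogenic genes, had brown signals of 1166.3 and 1278.3, against 631.6 to 816.1 in white fat (0.70 ± 0.15, adjusted limma p 0.0131). Its 3 probe sets were all higher in brown fat, but the call was lost without the WT brown array (0.57, adjusted limma p 0.0912) and without the KO epididymal array (0.67, adjusted limma p 0.0514). Kmt5a had brown signals of 2181.5 and 2002.4, against 1289.1 to 1657.3 in white fat (0.53 ± 0.13, adjusted limma p 0.0197). Leaving out the WT brown, KO epididymal, WT epididymal or WT subcutaneous array gave Kmt5a differences of 0.43 to 0.57 and ended its call, with adjusted limma p of 0.0534 to 0.121. With the mean of its probe sets the difference was 0.24 (adjusted limma p 0.110).

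Ehmt2, Setd7, Kdm7a and Nsd3 were the members furthest below white fat, each more than 2.0-fold. Nsd3, an H3K36 methyltransferase, had signals of 521.9 in KO and 515.6 in WT brown fat, against 1506.0 in KO and 1571.7 in WT subcutaneous fat and 1100.4 in KO and 957.4 in WT epididymal fat. Its difference was -1.28 ± 0.13 (SE; adjusted limma p 0.00131), and 1 of its 6 probe sets was higher in brown fat. Ehmt2 had brown signals of 970.3 in KO and 837.9 in WT, against 1524.6 to 2931.2 in white fat (-1.21 ± 0.19, adjusted limma p 0.00564). Its gap was -0.86 in KO and -1.56 in WT mice, a difference that was not tested. Setd7 differed by -1.16 ± 0.14 (adjusted limma p 0.00210). Kdm7a had signals of 629.3 in KO and 519.1 in WT brown fat, against 1345.9 in KO and 1474.6 in WT subcutaneous fat and 1105.5 in KO and 1078.0 in WT epididymal fat. Both brown arrays were below each white array, and Kdm7a differed by -1.12 ± 0.14 (adjusted limma p 0.00260).

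Kdm4b itself was 1.82-fold lower in brown than in white fat (-0.87 ± 0.16, adjusted limma p 0.00806), by -0.85 in KO and -0.88 in WT mice. Without the WT brown array its adjusted limma p was 0.0535, and with the floor at the 60th percentile the difference was -0.30 (adjusted limma p 0.136). Kdm4a and Kdm4c were not called between the depots. By residue, the other members called lower in brown fat were Jmjd1c for H3K9, Kdm1b, Kdm5b, Kmt2a and Kmt2c for H3K4, Ezh2 for H3K27, and Kdm2a, Kdm2b, Nsd1 and Setd2 for H3K36. Their differences lay between -0.85, for Kdm2b, and -0.43, for Kmt2c. Of 25 dimmer probe sets of called members, 21 were on the same side, and single probe sets of Kdm2a, Kdm5b, Kmt2c and Nsd3 were not.

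Markers of other cell types also differed between these depots. Macrophage markers were called lower in brown fat in 7 of 7 genes, lymphocyte markers in 9 of 9, fibroblast markers in 6 of 6 and cell cycle markers in 8 of 9. The summed macrophage signal was 6541.2 in KO and 8609.6 in WT brown fat, against 32278.4 to 41925.5 in white fat. The part of these cells in the lower member signals was not tested.

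**Figure D4:**
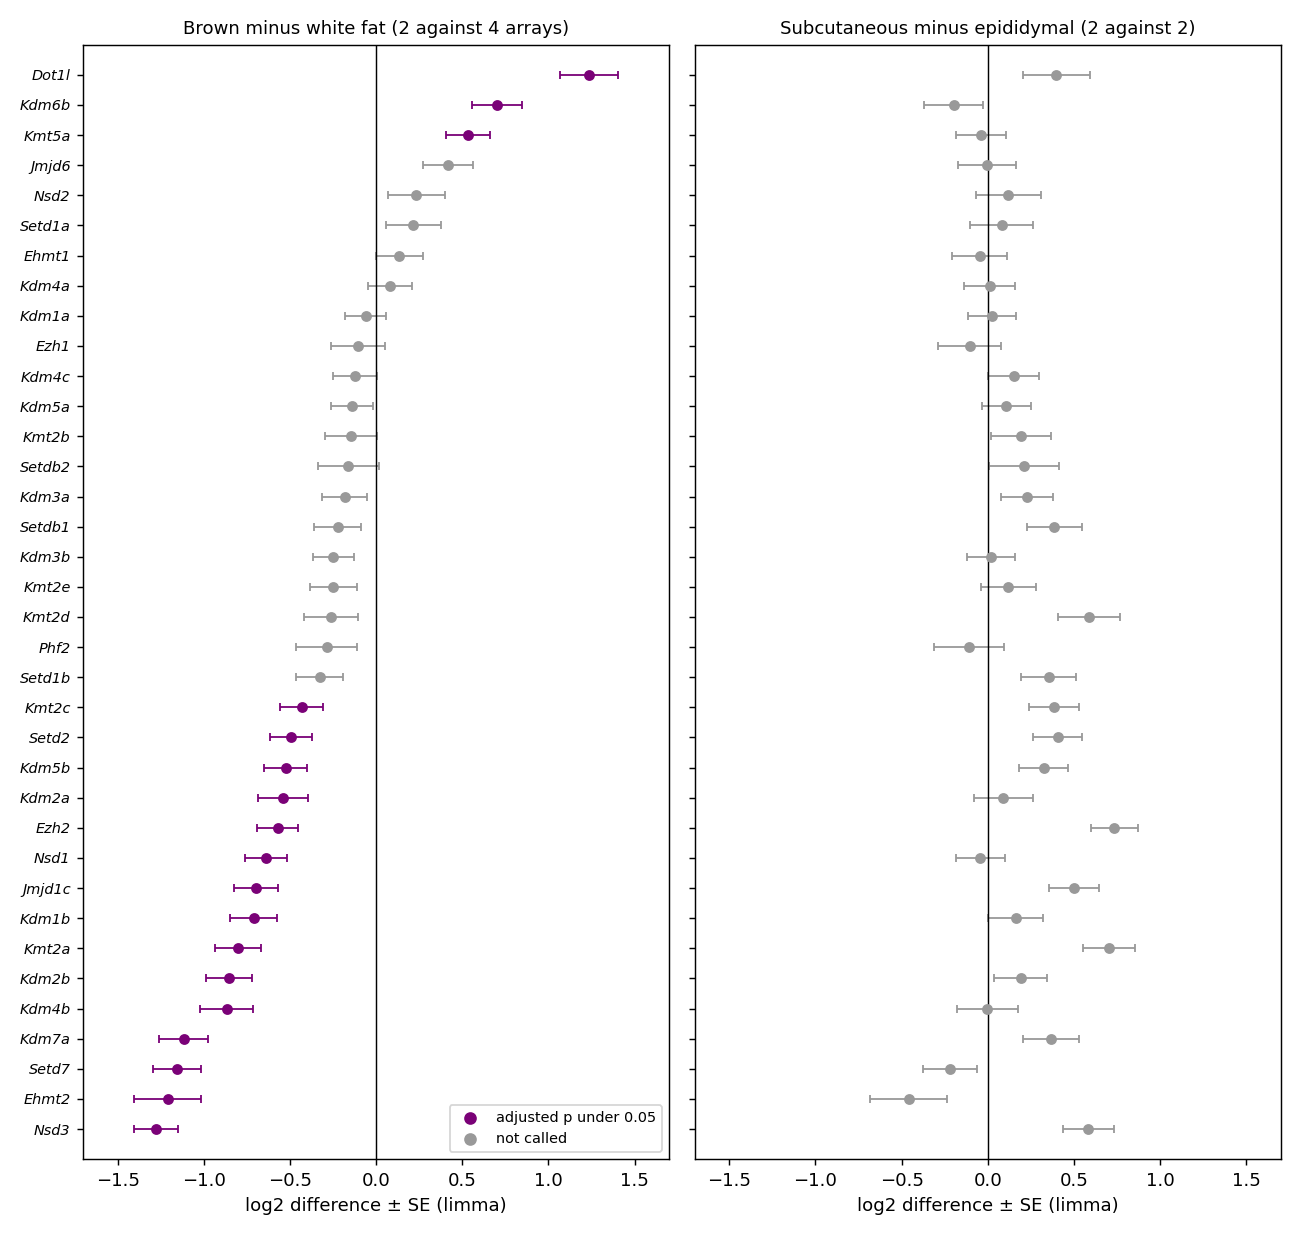
Log2 differences with limma SE for the 36 measured members, brown minus white fat on the left and subcutaneous minus epididymal fat on the right, in the order of the left side. Purple points have an adjusted p under 0.05, 3 higher and 15 lower on the left and 0 on the right.

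Between the white depots, 0 of 36 members were called higher or lower in subcutaneous fat (2 against 2 arrays), against 3.88% and 1.16% of all genes. At an unadjusted p under 0.05, the count was 7 higher and 0 lower, against 12.6% and 8.98% of genes. The 7 were Ezh2, Jmjd1c, Kmt2a, Kmt2c, Kmt2d, Nsd3 and Setd2. Ezh2 and Kmt2a came closest to the threshold. Ezh2 had signals of 1027.3 in KO and 1078.2 in WT subcutaneous fat, against 626.9 in KO and 636.9 in WT epididymal fat (0.74 ± 0.14 SE, adjusted limma p 0.0532). Kmt2a, a COMPASS-type H3K4 methyltransferase, differed by 0.70 ± 0.15 (adjusted limma p 0.0736). Lymphocyte markers were called higher in subcutaneous fat in 8 of 9 genes, with a median difference of 3.47, and their part in the Ezh2 and Kmt2a values was not tested. Of the members, 26 had higher and 10 lower signals in subcutaneous fat, with a median of 0.14 (all genes 0.00). Centred on the array medians, the member median was -0.21 and that of all genes -0.33.

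The proteins that work with these enzymes were read from lists that hold no member. Across depots, limma called 0 genes between KO and WT in each list. Of 9 partners of Polycomb repressive complex 2, Phf19, which recruits the complex, was the 1 past 1.5-fold (-0.62 in brown fat). Of 11 COMPASS subunits and partners, Cxxc1, which targets Setd1a and Setd1b to CpG islands, was the 1 past it (-0.71 in epididymal fat). Of 8 measured CoREST partners, Rcor2 was lower in KO epididymal fat (-0.97), with 73.2 in KO, near the floor of 63.2, and 143.8 in WT. Of 8 readers and partners of H3K9 methylation, Atf7ip, which stabilises Setdb1, was lower in KO epididymal fat (-0.59).

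Some demethylases and other JmjC-domain proteins outside the 39 genes gave larger differences, and not all of them are known to act on histones. Of 13 measured, Phf8, an X-linked eraser of H3K9 dimethylation, was higher in KO by 0.67 in epididymal fat, 0.65 in subcutaneous fat and 0.38 in brown fat, past 1.5-fold in the white depots. Hspbap1, a JmjC-domain protein, differed by 1.03 in subcutaneous and -0.94 in brown fat. Jmjd4 differed by 0.73 in subcutaneous fat and Hr, a JmjC-domain corepressor, by 1.11 in brown fat. Of 17 other SET and PRDM genes, Prdm8 was higher in KO epididymal fat (0.67) and Prdm9 was lower in KO brown fat (-0.66). The brown signals of Prdm9 were 55.4 in KO, under the floor of 63.2, and 99.9 in WT, so its size depends on the floor. Smyd1, a methyltransferase of striated muscle, was higher in KO subcutaneous fat (1.26). The muscle marker sum was also higher in KO subcutaneous fat, and its part in the Smyd1 value was not tested. None of these genes passed the adjusted test across depots.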

How the data were processed

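The arrays measured total RNA labelled with biotin, and each deposited value is a linear intensity per probe set that the authors made with MAS5 in Affymetrix Expression Console, per the submitters' processing notes. No version is given in the sources used here. Every array had a 2%-trimmed mean of 500.0, which hides any change in the amount of RNA per cell. Gene names came from the platform annotation of probe sets with 1 symbol (34958 of 45101 probe sets), updated through a RefSeq table of GRCm38.p6.

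Intensities were raised to the floor of 63.2 and put on the log2 scale. A gene counted as measured in a depot if the KO or the WT array exceeded the floor, and it was tested when at least 3 arrays did. The model, limma 3.58.1 under R 4.3.3, covered 13233 genes with depot and genotype as terms and Benjamini-Hochberg adjustment at 0.05. It was tested on simulated data. Groups of 1 array allow no test inside a depot, and the small number of arrays limits precision.

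All 39 genes are named. Values on every array are given for the KDM4 genes, members past 1.5-fold in a depot, members with 1 direction in all 3 depots and a mean size of at least 0.3 (log2), and the 5 largest calls in each direction between depots. Phf2 and Ezh2 were added after their values were seen. Of the other lists, at most 4 genes per comparison past 1.5-fold or called are named. The members and all lists were chosen with earlier results of these data known. Alternatives covered scaling, floors, summary over probe sets, cross-hybridising probe sets, thresholds, limma settings and leaving out arrays or depots. Other computations used Python 3.11.15, numpy 2.4.6, pandas 2.3.3 and matplotlib 3.10.9.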

Additional observations from a re-analysis of the deposited data

How the results depend on the processing

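With 1 array per group and no record of mice per sample, no value within a depot has a replicate error, and weak probe sets near the floor are noisy. Limma called 0 members between KO and WT under each alternative run, including each array or depot left out. That fit sets KO against WT within each depot, and no block by replicate could be added to groups of 1 array. Leaving out 1 white array at a time, members called in brown against white fat numbered 1 to 3 higher and 10 to 13 lower. With all arrays they numbered 3 and 15. Both lowest counts came without the KO epididymal array. Leaving out a brown array left 1 in that group, so the calls of those fits are not counted here. Brown against epididymal fat alone gave 8 lower, and quantile normalization 5 higher. In subcutaneous against epididymal fat, 3 members were called higher with the floor at the 60th percentile, 2 with the mean of probe sets and 4 with an intensity trend, against 0. Within depots, median centring moved the member medians to -0.029 in epididymal fat, -0.215 in subcutaneous fat and 0.111 in brown fat, while all genes moved to 0.11, -0.12 and 0.11. Counts past 1.5-fold under centring became 1 higher in epididymal, 3 lower in subcutaneous, and 1 higher and 0 lower in brown fat. The floor at the 20th percentile gave 1 lower in epididymal and 1 higher in subcutaneous and in brown fat. Without cross-hybridising probe sets there were 1 higher in epididymal and 2 lower in brown fat. Quantile normalization and the mean of probe sets each left 0 lower in brown fat, so that Dot1l was not past 1.5-fold there. A 2-fold threshold gave 0 lower in subcutaneous and brown fat, and a lower fold threshold gave 3 higher and 8 lower in epididymal, 6 lower in subcutaneous, and 1 higher and 5 lower in brown fat. Of the values for single members, 192 kept their direction and any call, and 5 small differences without a call changed sign. Another 12 lost the call, for Kdm6b, Kmt5a, Ehmt2 or Kdm4b in brown against white fat. The 5 were, with median centring, Kdm4a (-0.01 in subcutaneous and 0.06 in brown fat), Setd7 (-0.02) and Dot1l (-0.14) in subcutaneous fat, and Dot1l there with quantile normalization (-0.005). No called value changed sign. These counts take no account of the side of 1.5-fold on which a KO against WT value lay. In brown fat Dot1l (-0.62) came under 1.5-fold with quantile normalization (-0.579), median centring (-0.482) and the mean of probe sets (-0.346). Setd7 in brown fat (0.468) passed 1.5-fold with median centring (0.607). The causes were not tested.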

Other observations

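Some methyltransferase genes outside the 39 differed between brown and white fat. Of 17 measured genes of the SET and PRDM families, limma called 5 higher and 6 lower in brown fat at an adjusted p under 0.05, near the shares of all genes (21.6% higher and 31.1% lower). Prdm16, the regulator that sets brown adipocyte identity, was higher by 1.94 on the log2 scale (adjusted limma p 0.000592), and Smyd4 by 2.08 (adjusted limma p 0.000514). Prdm16 was also higher in subcutaneous than in epididymal fat, by 1.12 (adjusted limma p 0.0271). Phf8, the demethylase with higher KO signals in all depots, was lower in brown fat (-1.69, adjusted limma p 0.000705).

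Partner proteins were split in the same contrast. Of 9 partners of Polycomb repressive complex 2, Phf19 was higher in brown fat (1.52, adjusted limma p 0.00414) and Mtf2, its paralog, was lower (-0.56, adjusted limma p 0.0291). Of 11 COMPASS subunits and partners, Dpy30, Men1 and Paxip1 were higher and Psip1, Wdr82 and Ash2l were lower. Of 8 readers and partners of H3K9 methylation, Atf7ip, Trim28, Mbd1 and Cbx5 were lower and Wiz, a partner of Ehmt1 and Ehmt2, was higher (0.76, adjusted limma p 0.00639). Of 8 CoREST partners, Hmg20b was higher (1.17, adjusted limma p 0.00802) and Phf21a was lower (-0.91, adjusted limma p 0.00529). Beside Phf8, Kdm5c was lower (-0.38, adjusted limma p 0.0463) and Tyw5, a JmjC-domain protein, was higher (0.64, adjusted limma p 0.00965).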
